A study of Mus musculus with 15 samples.

Results

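Toll-like receptors are membrane proteins of the innate immune system that bind molecules shared by microbes or released by damaged cells, and they signal through adaptor proteins to NF-kB and interferon regulatory factors. In the kidney they are found on resident macrophages, dendritic cells and infiltrating leukocytes, and some members are also expressed by tubular, endothelial and glomerular cells. The 10 genes described here were chosen by name: Tlr1, Tlr2, Tlr4, Tlr5 and Tlr6, whose proteins sit at the cell surface and bind bacterial lipids, lipopolysaccharide or flagellin, and Tlr3, Tlr7, Tlr8, Tlr9 and Tlr13, whose proteins sit in endosomes and bind nucleic acids. They are 10 of the 46078 genes in the count table, and all 10 passed the filter on low counts in each comparison.

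RNA was sequenced from podocyte fractions of male C57BL/6J mice. A podocyte fraction is the part of a digested kidney cortex that was retained by magnetic beads after labelling with antibodies to nephrin, a protein of the podocyte slit diaphragm. Young mice were 4 months old and uninjected. Aged mice were 21 months old at the start and received either aPD1ab, a neutralizing antibody to the checkpoint receptor PD-1 (clone RMP1-14), or the isotype control IgG2a (clone 2A3), each at 12 mg/kg once weekly for 8 weeks, while the titles of the aPD1ab samples say 47 days. The labels list 5 mice per group, and 5 young, 4 aged IgG2a and 4 aged aPD1ab libraries were used, each from 1 mouse. The 2 remaining libraries could not be tied to a group. Young mice received no antibody, so age and injection cannot be told apart in any comparison with them.

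Library totals lay between 19912969 and 32717100 counts. Values are CPM, counts relative to the library total after TMM scaling, and 3 counts corresponded to between 0.0851 and 0.202 CPM, a limit that covers counting error only. One library, aged IgG2a replicate 1, stood apart from its group. It scored -16.7 on the first principal component of 16330 genes. The other aged IgG2a libraries scored between 71.7 and 84.5 there, and every young library scored below it. The aged aPD1ab libraries scored between -64.6 and 11, a range that held aged IgG2a replicate 1. On the second component it scored -17.2, against -56 to -23.6 in aged aPD1ab and 2.13 to 10.2 in the other aged IgG2a libraries. Results are given for all libraries first and then without aged IgG2a replicate 1. The sources give no reason to leave this library out, and it was singled out after the data were seen. The adjusted p of fits without it are therefore descriptions and not separate support. Of 8 podocyte markers, none was at or under 3 counts in any library, which does not show how pure the fraction was. Their summed level was between 809.5 and 1312 CPM in young, between 297 and 405 CPM in aged IgG2a and between 203 and 686 CPM in aged aPD1ab mice. Transcripts of other cells were present in every library. The sum of 5 loop and distal tubule markers, led by Umod, was above the podocyte sum in every library. It was between 6384.5 and 9115.5 CPM in young mice and between 5688 and 10079 CPM in aged aPD1ab mice. Aged IgG2a replicate 1 was at 13528 CPM and the other aged IgG2a mice were between 5706 and 6234 CPM. The sum of 11 macrophage markers (Adgre1, Csf1r, C1qa, C1qb, C1qc, Cd68, Mrc1, Cx3cr1, Fcgr1, Mertk and Cd163) was between 1583 and 2692 CPM in young mice, 2246.5 CPM in aged IgG2a replicate 1, between 5024.5 and 7025.5 CPM in the other aged IgG2a mice and between 1615 and 3771 CPM in aged aPD1ab mice.

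Promoters are shown for Tlr8, Tlr9 and Tlr13, the members with the lowest fold changes of aged aPD1ab against aged IgG2a mice, a choice made after the values were seen. Each line gives the 250 bases before the RefSeq start of the gene on GRCm38.p6, 5′ to 3′ on the strand of the gene. Capitals mark the letters GAGGAA, the core of the site of the myeloid transcription factor PU.1, on either strand (TTCCTC where it lies on the opposite strand).
Tlr8, chrX:167264330-167264579 (- strand): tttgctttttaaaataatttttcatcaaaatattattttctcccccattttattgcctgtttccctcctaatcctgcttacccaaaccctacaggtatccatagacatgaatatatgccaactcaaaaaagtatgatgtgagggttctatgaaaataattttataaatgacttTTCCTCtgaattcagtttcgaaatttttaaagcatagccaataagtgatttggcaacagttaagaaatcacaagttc
Tlr9, chr9:106222348-106222597 (+ strand): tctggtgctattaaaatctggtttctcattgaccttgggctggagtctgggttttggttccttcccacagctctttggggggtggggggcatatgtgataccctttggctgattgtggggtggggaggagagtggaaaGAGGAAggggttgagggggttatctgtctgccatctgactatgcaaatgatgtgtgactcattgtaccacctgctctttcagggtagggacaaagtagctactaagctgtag
Tlr13, chrX:106143025-106143274 (+ strand): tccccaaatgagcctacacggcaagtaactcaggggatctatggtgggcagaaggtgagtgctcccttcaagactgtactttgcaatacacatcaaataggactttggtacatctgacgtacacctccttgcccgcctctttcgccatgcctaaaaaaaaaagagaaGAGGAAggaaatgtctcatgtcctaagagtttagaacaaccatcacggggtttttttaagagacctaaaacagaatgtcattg

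Each of these 3 windows held 1 such match. The promoter table held 10 windows for 8 of the members, all but Tlr4 and Tlr7, and 4 of these windows (of Tlr1, Tlr8, Tlr9 and Tlr13) held GAGGAA on either strand, beside 23.3% of all 32851 windows. The letters GGAANNGAA, part of the composite site of ETS and interferon regulatory factors, were in 0 of the 10 windows and in 6.99% of all windows. A match of letters is a description and does not show binding.

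Per length, Tlr2 was the most abundant member and Tlr5 the least abundant in each group. In young mice the level per kilobase of exon was 28.8 ± 8.18 CPM (SD, n = 5) for Tlr2, which forms heterodimers with TLR1 or TLR6 to bind bacterial lipoproteins. Tlr9 (10.2 ± 3.07), Tlr7 (9.29 ± 0.996), Tlr13 (9.21 ± 1.20) and Tlr1 (9.21 ± 2.54) followed, and neighbours among these 4 overlapped between libraries. Tlr3 (5.05 ± 0.300), Tlr8 (4.40 ± 1.30) and Tlr4 (4.08 ± 0.454) came next, and neighbours among them overlapped too. Tlr6 was at 1.80 ± 0.497 and Tlr5 at 0.441 ± 0.0993 CPM per kilobase, and neither overlapped with its neighbours in the order. In aged aPD1ab mice the order was Tlr2, Tlr1, Tlr7, Tlr13, Tlr9, Tlr3, Tlr8, Tlr4, Tlr6 and Tlr5. Tlr9 thus stood lower in the order than in young mice, as it did in aged IgG2a mice, where it also followed Tlr13. Its range overlapped with that of Tlr13 above it in both aged groups and with that of Tlr7 in young mice. With the longest transcript as length, Tlr1 stood above Tlr9 in young mice too. Tlr1 and Tlr6 are neighbours on chromosome 5 with near-identical stretches: 454 of the 3332 words of 50 bases in the exons of Tlr1 (13.6%) were also in Tlr6, so their counts may share or lose reads. No other pair of members shared such a word.

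**Figure D1:**
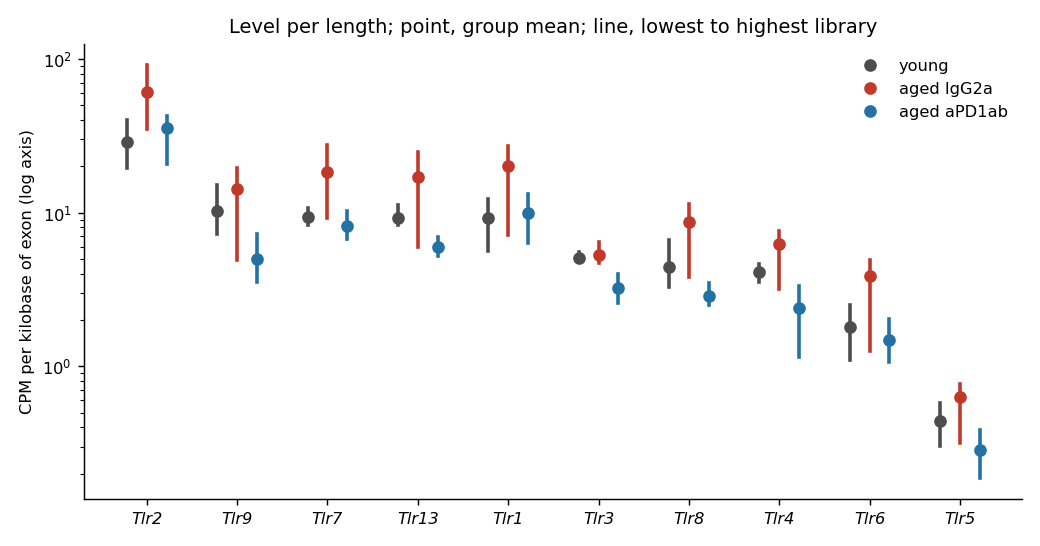
Mean level of each member in CPM per kilobase of exon (log axis), with a line from the lowest to the highest library, for young (n = 5), aged IgG2a (n = 4) and aged aPD1ab mice (n = 4). Tlr2 lies highest and Tlr5 lowest in each group.

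The first comparison asked how the aged IgG2a mice differed from young mice. Here and below, with age is the name of this comparison, in which injection differed as well. Tlr1, Tlr2, Tlr7 and Tlr8 were higher with age, by log2 fold changes of 1.06 to 1.22, and no member was lower. These 4 members of 10 passed an adjusted p under 0.05 (edgeR quasi-likelihood test, Benjamini-Hochberg over 15953 genes), beside 9.05% of all genes tested that were called higher and 8.38% called lower. The fold changes of all 10 members were above 0, with a median of 1.02 against 0.038 for all genes. In a bulk library, a change in the number of cells that carry a transcript and a change in its amount per cell cannot be told apart. Without aged IgG2a replicate 1, 9 of 10 members were higher, all but Tlr3, beside 22.1% of all genes called higher and 23.5% called lower in that fit. With any other aged IgG2a library left out 0 members were called, beside between 260 and 485 genes called higher of 16189 to 16295 tested. With 1 young library left out 0 or 1 was called, beside between 345 and 744 genes called higher of 15691 to 15801 tested.

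Tlr7 (chromosome X, 167304929 to 167330558 on GRCm38), whose protein binds single-stranded RNA in endosomes, was at 38.5, 43.9, 33.8, 38.9 and 34.5 CPM in the young mice, at 37.5, 113, 68.4 and 78.9 CPM in the aged IgG2a mice and at 41.7, 28.6, 35.7 and 27.7 CPM in the aged aPD1ab mice. Aged IgG2a replicates 2 to 4 lay above every young and every aPD1ab library, while replicate 1 lay within the young range. The log2 fold change with age was 1.06 (SE 0.27, edgeR adjusted p = 0.0293), and 1.27 without replicate 1 (edgeR adjusted p = 0.000112).

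Tlr8 (chromosome X, 167242696 to 167264329), the neighbour of Tlr7 and a receptor of RNA breakdown products, was at 13.7, 23.8, 15.1, 14.5 and 11.8 CPM in young mice, at 13.7, 40.8, 39.0 and 30.7 CPM in aged IgG2a mice and at 12.5, 8.95, 9.19 and 10.3 CPM in aged aPD1ab mice. The aged aPD1ab libraries were all below the aged IgG2a libraries, replicate 1 included, and overlapped with the young range only at its low end. With age the log2 fold change was 1.06 (SE 0.32, edgeR adjusted p = 0.0476), and 1.29 without replicate 1.

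Tlr2 (chromosome 3, 83836272 to 83841767) did not separate in the same way. It was at 95.5, 94.2, 58.4, 66.7 and 119.8 CPM in young mice, at 107, 243, 276 and 106 CPM in aged IgG2a mice and at 125.5, 62.6, 127 and 114 CPM in aged aPD1ab mice. Here 2 aged IgG2a libraries were high, and replicates 1 and 4 lay within the young range. The log2 fold change with age was 1.16 (SE 0.34, edgeR adjusted p = 0.0418), and 1.34 (edgeR adjusted p = 0.0104) without replicate 1, where the groups still overlapped.

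Its partners were Tlr1 (chromosome 5, 64924679 to 64933563), at between 18.9 and 40.9 CPM in young mice, 24.1 CPM in aged IgG2a replicate 1 and between 75.9 and 91.0 CPM in the other aged IgG2a mice, and Tlr6 (chromosome 5, 64952031 to 64960097), at between 4.10 and 9.30, 4.66, and between 16.3 and 18.4 CPM in the same order. Tlr1 was called higher with age (log2 fold change 1.22, SE 0.36, edgeR adjusted p = 0.0447) and Tlr6 was not (1.18, SE 0.38, edgeR adjusted p = 0.0591). Both were called without replicate 1, at 1.49 and 1.46 (edgeR adjusted p = 0.000463 and 0.000291). In the latter libraries the groups of 8 members did not overlap, all but Tlr2 and Tlr3, beside 18.2% of all genes whose aged IgG2a values lay above every young value. With all libraries, 0 members were without overlap in that comparison.

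Tlr4 (chromosome 4, 66827584 to 66930284), the receptor of lipopolysaccharide, was at 22.6, 25.7, 19.6, 20.9 and 24.5 CPM in young mice, at 17.6, 39.6, 39.6 and 41.8 CPM in aged IgG2a mice and at 15.5, 6.43, 18.5 and 12.8 CPM in aged aPD1ab mice. Aged IgG2a replicates 2 to 4 were highest, young mice lay between and aPD1ab mice were lowest, with no overlap, while aged IgG2a replicate 1 lay within the aPD1ab range. The log2 fold change with age was 0.70 (SE 0.24, edgeR adjusted p = 0.0705), and 0.91 without replicate 1 (edgeR adjusted p = 6.12e-05).

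Tlr13 (chromosome X, 106143204 to 106160493), an endosomal receptor of bacterial ribosomal RNA, followed the same order, with 39.5, 48.4, 38.5, 35.6 and 36.3 CPM in young mice, 25.5, 106.8, 76.6 and 85.4 CPM in aged IgG2a mice and 30.0, 23.0, 26.5 and 22.6 CPM in aged aPD1ab mice. Tlr9 (chromosome 9, 106222598 to 106226883), the receptor of unmethylated CpG DNA, was at 36.2, 52.9, 28.5, 25.4 and 33.9 CPM in young mice, at 17.2, 68.1, 54.2 and 58.8 CPM in aged IgG2a mice and at 25.1, 12.2, 17.8 and 14.3 CPM in aged aPD1ab mice. For both genes all aged aPD1ab libraries, and aged IgG2a replicate 1, lay below all young libraries. With age the log2 fold changes were 0.98 for Tlr13 (edgeR adjusted p = 0.0689) and 0.58 for Tlr9 (edgeR adjusted p = 0.281), and 1.25 and 0.85 without replicate 1 (edgeR adjusted p = 4.13e-05 and 0.0107).

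Tlr5 (chromosome 1, 182954788 to 182976044), the flagellin receptor, was the least abundant, at between 1.45 and 2.76 CPM in young, 1.52 CPM in aged IgG2a replicate 1, between 3.34 and 3.69 CPM in the other aged IgG2a and between 0.895 and 1.85 CPM in aged aPD1ab mice. Its log2 fold change with age was 0.59 (edgeR adjusted p = 0.188), and 0.81 (edgeR adjusted p = 0.0143) without replicate 1.

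Tlr3 (chromosome 8, 45395665 to 45411080), the receptor of double-stranded RNA, signals through TRIF alone and is also expressed by epithelial cells. It was at 25.3, 28.7, 24.6, 26.7 and 26.2 CPM in young mice, at 24.3, 33.2, 26.2 and 27.2 CPM in aged IgG2a mice and at 15.1, 18.2, 20.8 and 13.5 CPM in aged aPD1ab mice. The young and aged IgG2a values overlapped, replicate 1 included, and every aPD1ab value was below both. With age the log2 fold change was 0.15 (SE 0.12, edgeR adjusted p = 0.358), and 0.21 (edgeR adjusted p = 0.106) without replicate 1, which makes Tlr3 the one member not called in either fit. Its exons overlap by 381 bases with Gm45542 on the opposite strand, and the strand setting of the counting is not given in the sources used here, so reads of both genes cannot be told apart there.

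**Figure D2:**
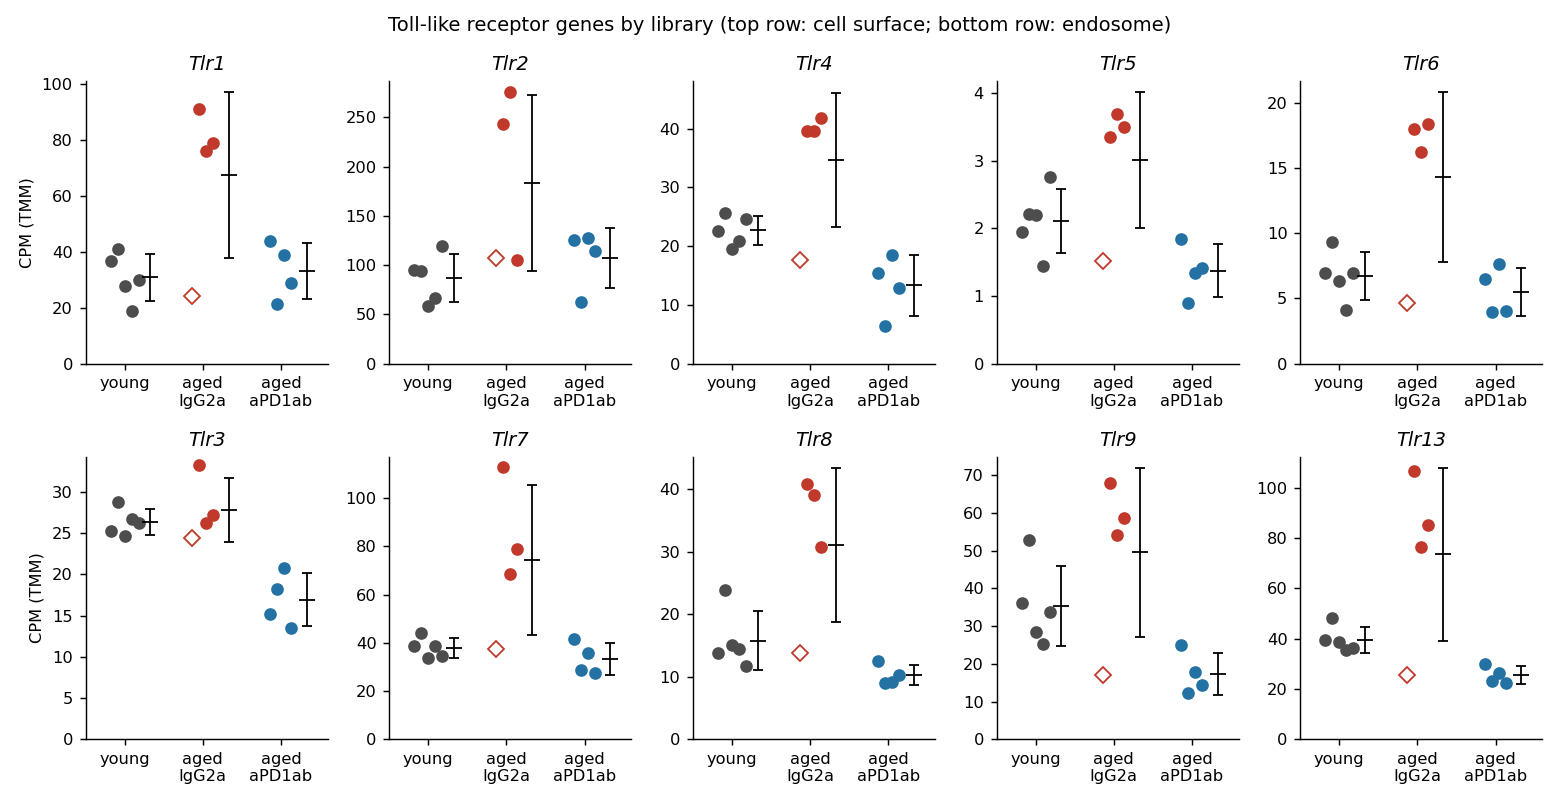
CPM of each member in every library, with the group mean ± SD beside the points; the open diamond is aged IgG2a replicate 1. The 3 other aged IgG2a libraries lie above the young libraries for all members but Tlr2 and Tlr3, and the aPD1ab libraries lie below the young ones for Tlr3, Tlr4, Tlr9 and Tlr13.

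The second comparison asked how aPD1ab changed the aged fractions. With all 8 libraries, the fold changes of all 10 members were below 0, from -0.74 for Tlr3 to -1.63 for Tlr8, with a median of -1.30 against -0.011 for all genes. None passed the test: 0 of 10 members and 0% of the 15530 genes tested were called lower, and 0% were called higher, by edgeR at an adjusted p under 0.05, although 4341 genes had an unadjusted p under 0.05. DESeq2 on the same libraries called 8 members lower, beside 983 genes lower and 1390 higher of 14908 tested. The voom method of limma, with sample quality weights, called 10 lower, beside 2929 genes lower and 3248 higher of 15530 tested. The adjusted p of the members in edgeR lay between 0.109 and 0.201. Tlr3 and Tlr8 were the 2 members whose groups did not overlap, beside 4.91% of all genes whose aPD1ab values lay below every aged IgG2a value.

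Without aged IgG2a replicate 1, 9 of 10 members were lower in aPD1ab mice, all but Tlr2, beside 13.2% of genes called lower and 17.1% called higher in that fit. The same 9 did not overlap between groups, beside 17.8% of all genes. Tlr8 had a log2 fold change of -1.89 (SE 0.15), Tlr13 of -1.86 (SE 0.16) and Tlr9 of -1.85 (SE 0.23), each with an edgeR adjusted p = 0.0064, the lowest of any gene in that fit. Those of Tlr6, Tlr4, Tlr7, Tlr5 and Tlr1 were -1.72, -1.65, -1.42, -1.39 and -1.35. Tlr3 had the smallest change of the 9, -0.82 (edgeR adjusted p = 0.0144). Tlr2 was at -1.003 (SE 0.35, edgeR adjusted p = 0.0606).

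The third comparison set aged aPD1ab mice beside young mice and did not use the aged IgG2a libraries. Tlr3, Tlr4, Tlr9 and Tlr13 were lower in aged aPD1ab than in young mice, and no member was higher. These 4 of 10 stand beside 9.97% of the 15986 genes tested that were called lower and 12.4% called higher, and the same 4 did not overlap between the groups, beside 10.7% of all genes. The log2 fold change was -1.01 for Tlr9 (SE 0.25, edgeR adjusted p = 0.0192), -0.76 for Tlr4 (SE 0.25, edgeR adjusted p = 0.0498), -0.63 for Tlr3 (SE 0.13, edgeR adjusted p = 0.00931) and -0.62 for Tlr13 (SE 0.13, edgeR adjusted p = 0.00852). Tlr8 was at -0.61 (edgeR adjusted p = 0.0537) and Tlr5 at -0.60 (edgeR adjusted p = 0.135). Tlr7 was at -0.17 and Tlr6 at -0.28, and Tlr1 and Tlr2 were at 0.12 and 0.32, none with an edgeR adjusted p under 0.05. The 4 called members had lower values than young mice in all 4 aPD1ab libraries. Without aged aPD1ab replicate 4, 2 of the members were called lower, beside 1024 of 16210 genes. In 1 edgeR fit of all 3 groups 1 of 10 was, beside 1411 of 16330 genes, a share near that of all genes. The comparisons share libraries, so their fold changes are not independent of each other.

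**Figure D3:**
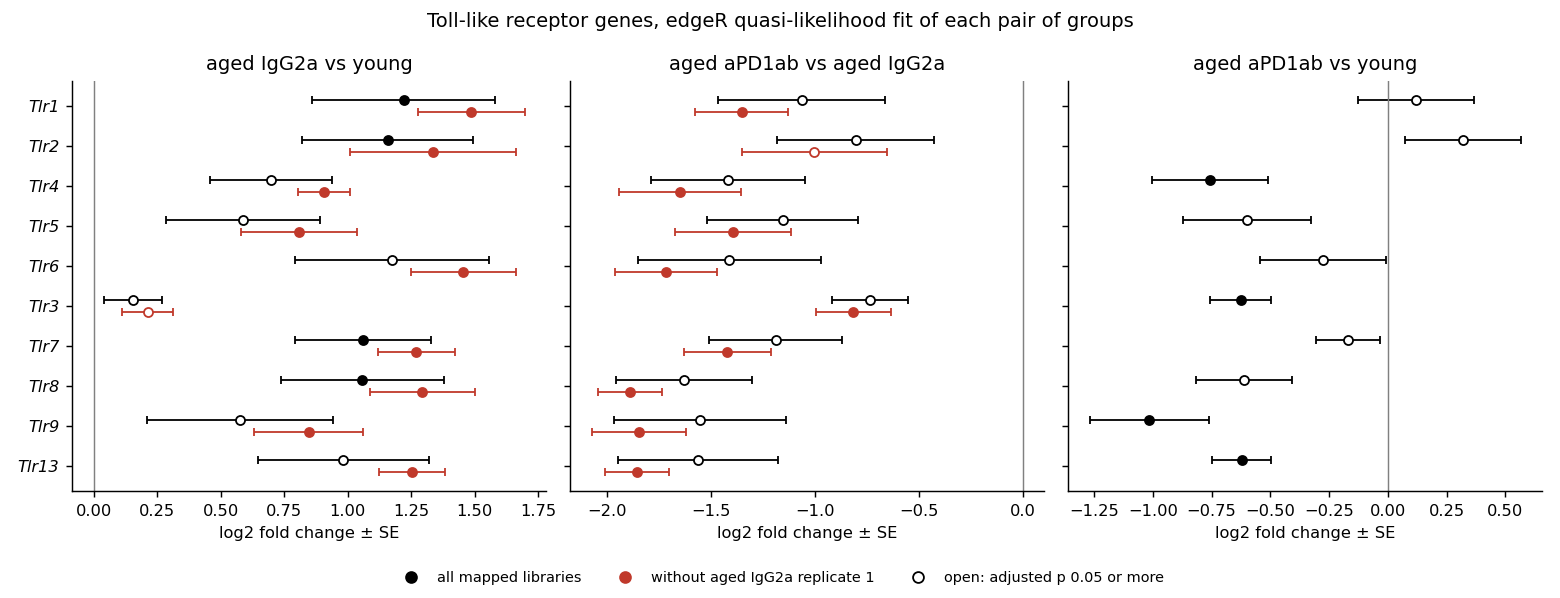
Fold change (log2) ± SE of each member in the 3 comparisons, from edgeR. Filled points passed an adjusted p under 0.05; black points use all libraries and red points leave out aged IgG2a replicate 1, where 9 members were higher with age and 9 lower with aPD1ab.

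The macrophage markers moved with the members. With age 8 of the 11 markers were higher (median log2 fold change 1.21), and 9 without aged IgG2a replicate 1, beside 9.05% and 22.1% of all genes. With aPD1ab against aged IgG2a mice 0 of 11 were called, with a median of -1.04, and 10 were lower without replicate 1, beside 13.2% of all genes. Between aged aPD1ab and young mice 0 of 11 were called, with a median of 0.083. Each member was therefore also measured per 1000 CPM of these markers in the same library, and the log2 ratio was compared by a two-sided exact permutation test over libraries, adjusted over 30 tests. Csf1r and the C1q genes were the most abundant markers and weighed most in this sum. With age C1qa, C1qb and C1qc were at 1.62, 1.52 and 1.52, the highest of the 11, while Adgre1 was at 0.92 and Mertk at 0.11. Between aged aPD1ab and young mice the C1q genes were at 0.68, 0.66 and 0.59, while 5 of the 11 markers were below 0. A sum without the C1q genes was not tested, so the ratios describe this sum only.

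Relative to macrophage markers, no member was higher in aged IgG2a than in young mice. All 10 log2 ratios were lower on average, and 3 passed the test: Tlr9 by -0.79, Tlr5 by -0.69 and Tlr4 by -0.61 (exact permutation p = 0.00794 each, the smallest that 5 against 4 libraries can give; adjusted p = 0.0298). Tlr3 had the lowest difference, -1.08, and did not pass (exact permutation p = 0.0317, adjusted p = 0.0733). Tlr9 was at 16.1 ± 2.11 CPM per 1000 CPM of markers in young mice (SD, n = 5), 9.40 ± 1.74 in aged IgG2a mice (SD, n = 4) and 6.56 ± 1.48 in aged aPD1ab mice (SD, n = 4). In this unit aged IgG2a replicate 1 was at 7.65 for Tlr9, the lowest of a group that reached 11.7, and without it the difference was -0.69 (exact permutation p = 0.0179, the smallest 5 against 3 libraries can give; adjusted p = 0.0595, as for Tlr3, Tlr4 and Tlr5). Tlr1, Tlr2, Tlr6, Tlr7 and Tlr8 had ratio differences between -0.14 and -0.28 with age, which did not pass the test, nor did Tlr13 at -0.43 (exact permutation p = 0.0635, adjusted p = 0.119).

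Between aged aPD1ab and young mice the ratio was lower for 5 members, Tlr9 by -1.32, Tlr4 by -1.15, Tlr13 by -0.92, Tlr5 by -0.92 and Tlr6 by -0.58 (exact permutation p = 0.00794 each, adjusted p = 0.0298). Tlr4 was at 10.6 ± 1.49 CPM per 1000 CPM of markers in young mice (SD, n = 5) and at 4.80 ± 0.588 in aged aPD1ab mice (SD, n = 4). Tlr2 (39.9 ± 6.80 and 40.01 ± 5.86) and Tlr1 (14.1 ± 1.76 and 12.4 ± 1.58) differed by 0.011 and -0.18 on the log2 scale. With any 1 young or aPD1ab library left out, 0 of these ratios passed the adjusted test, while all 5 passed without aged IgG2a replicate 1, which changes only the adjustment here (adjusted p = 0.0476). With age 0 passed with any 1 young or IgG2a library left out, where the smallest possible p is higher; without replicate 1 Tlr4 was at -0.67 and Tlr5 at -0.74. Between the 2 aged groups 0 of 10 ratios passed the test; the lowest were Tlr8 at -0.63 and Tlr4 at -0.54 (exact permutation p = 0.0286 each, the smallest 4 against 4 libraries can give; adjusted p = 0.0733).

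**Figure D4:**
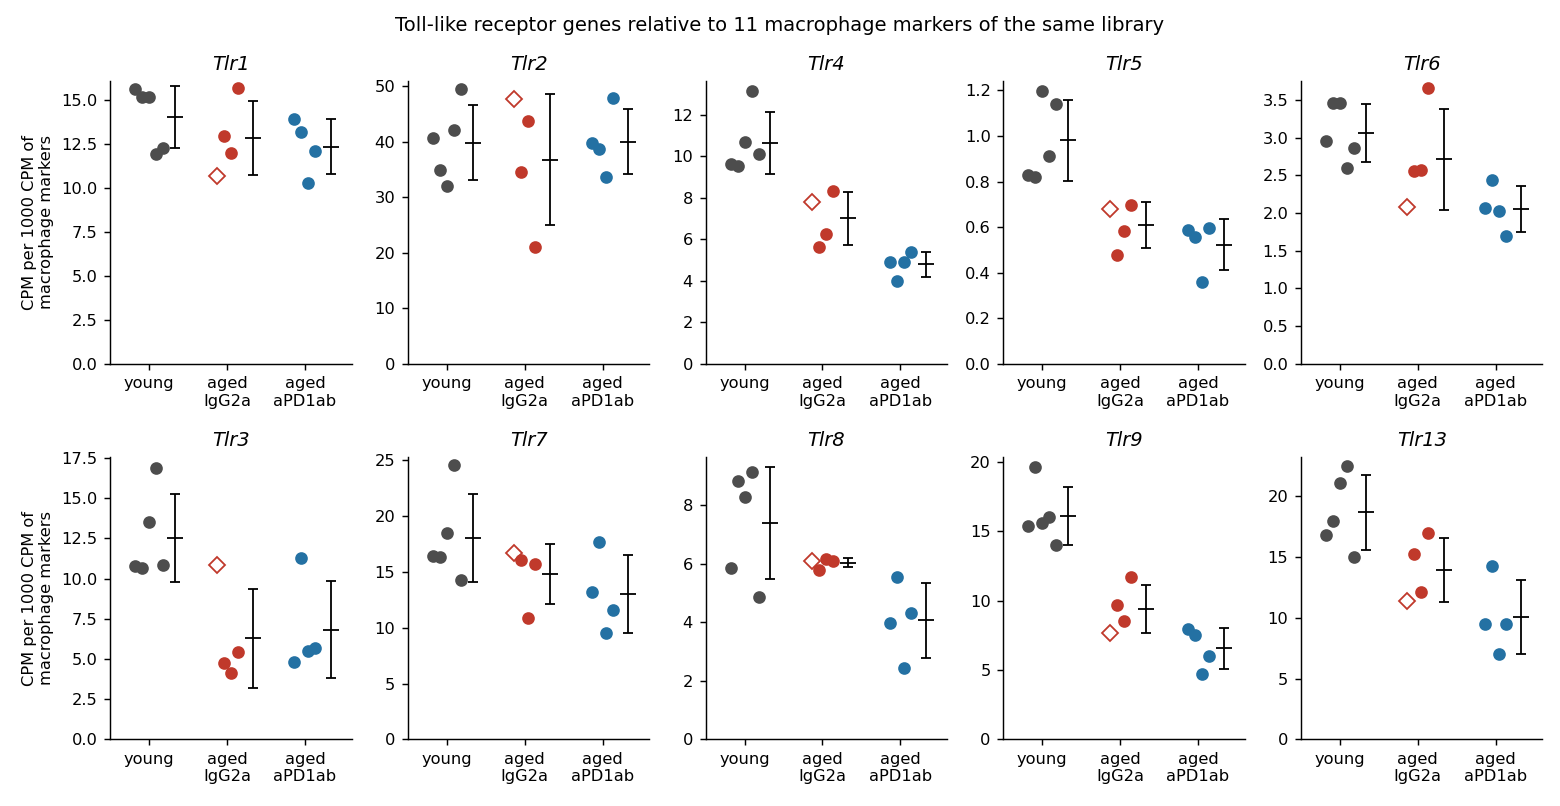
CPM of each member per 1000 CPM of 11 macrophage markers in every library, with the group mean ± SD; the open diamond is aged IgG2a replicate 1. Tlr4 and Tlr9 lie lower in both aged groups than in young mice, while Tlr1 and Tlr2 overlap between all groups.

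The sum of 7 dendritic cell markers lay between 193 and 322 CPM in young mice, at 124 CPM in aged IgG2a replicate 1, between 356 and 404 CPM in the other aged IgG2a mice and between 73.3 and 212 CPM in aged aPD1ab mice, and 3 of the 7 were lower in aged aPD1ab than in young mice, beside 9.97% of all genes. The most abundant of them was Itgax, at 117 CPM in young and 219 CPM in aged IgG2a mice (270 CPM without replicate 1). The median log2 fold change of the 7 with age was -0.61, with 4 below 0, and Zbtb46 was called lower (-0.61, edgeR adjusted p = 0.0208) and 0 higher. The sum of 8 monocyte and neutrophil markers, led by Ccr2, lay between 165 and 304, at 125, between 387 and 536 and between 95.9 and 284 CPM in the same order. B cell markers overlapped between all groups. Their sum was between 61.4 and 189 CPM in young and between 61.3 and 291 CPM in aged IgG2a mice. In aged aPD1ab mice it was between 45.0 and 172 CPM. The sum of 6 T cell markers, most of it Cd4, was low and was highest in aged IgG2a replicates 2 to 4. It lay between 11.1 and 19.4 CPM in young mice, at 15.5 CPM in aged IgG2a replicate 1, between 25.5 and 47.7 CPM in the other aged IgG2a mice and between 13.5 and 18.2 CPM in aged aPD1ab mice. With age all 6 had fold changes above 0 (median 1.34 on the log2 scale). Of these 1 was called higher, beside 9.05% of all genes, and 5 without replicate 1, beside 22.1%. Between the aged groups all 6 were below 0, and 0 were called lower, beside 0% of all genes. Without replicate 1, 3 were lower, beside 13.2%. Between aged aPD1ab and young mice the median was 0.039, with 3 above and 3 below 0. There 1 was called, Cd3d, higher by 1.55 (edgeR adjusted p = 0.0355), beside 12.4% of all genes called higher. Defining markers at or under 3 counts in some libraries were Cxcr2, Ly6g and Retnlg of neutrophils and Cd3g of T cells. Proximal tubule markers moved the other way, at between 4841 and 7657 CPM in young, 3515 CPM in aged IgG2a replicate 1, between 729 and 1085 CPM in the other aged IgG2a and between 3314 and 10320.5 CPM in aged aPD1ab mice. The part of these cells in the values of the members was not tested.

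The 2 other Toll-like receptor genes of the mouse, Tlr11 and Tlr12, whose proteins bind profilin of protozoa, were also measured. Tlr11 was at between 5.26 and 11.7 CPM in young mice, 1.76 to 5.85 CPM in aged IgG2a mice and 0.895 to 3.42 CPM in aged aPD1ab mice. Tlr12 was at 23.9, 39.0, 23.7 and 28.7 CPM in aged aPD1ab mice, above every aged IgG2a library (12.2 to 20.9 CPM) and every young library (13.6 to 21.6 CPM). Against young mice Tlr11 was lower by a log2 fold change of -2.03 and Tlr12 higher by 0.79 in aPD1ab mice (edgeR adjusted p = 0.00732 and 0.0131). With age Tlr11 was at -1.06 (edgeR adjusted p = 0.0631), opposite to the members, and aged IgG2a replicate 1 was its lowest library of that group. Between the aged groups Tlr11 was at -0.93 (edgeR adjusted p = 0.248), and -1.19 (edgeR adjusted p = 0.0734) without replicate 1. In the same comparison Tlr12 was at 0.72 (edgeR adjusted p = 0.123), and 0.56 (edgeR adjusted p = 0.0768) without aged IgG2a replicate 1.

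Transcripts of proteins that bring the receptors to the endosome and process them were measured next. With age 6 of 8 endosomal proteases and transporters were higher and 0 lower, beside the background given above, and the median log2 fold change was 0.92. The abundant members were Ctsb, at 696 CPM in young and 1591 CPM in aged IgG2a mice, Ctss, at 476 and 1182 CPM, and Lgmn, at 371 and 560 CPM, which encode proteases of endosomes and lysosomes that cleave the endosomal receptors. Ctsl, which encodes a further protease of this kind, was at 273.5 and 173.5 CPM. Between aged aPD1ab and young mice Ctsb and Lgmn were still higher, by 0.81 and 0.70 (edgeR adjusted p = 0.00633 and 0.0252), and Ctss was at 0.37 (edgeR adjusted p = 0.279). Without aged IgG2a replicate 1, Ctsl was higher in aPD1ab than in IgG2a mice by 1.21 and Ctss lower by -1.27 (edgeR adjusted p = 0.0229 and 0.0167), and Ctsb was not called.

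Of 11 accessory and co-receptor genes, 6 were higher and 1 lower with age, beside 9.05% and 8.38% of all genes. Unc93b1, which carries the endosomal receptors out of the endoplasmic reticulum, rose by 1.14 (edgeR adjusted p = 0.0432), and Cd14, which hands lipopolysaccharide to TLR4, by 1.21 (edgeR adjusted p = 0.0394). Cd36, a scavenger receptor that endothelial and tubular cells also express, was lower with age, at -0.82 (edgeR adjusted p = 0.00974). Hsp90b1, the chaperone of the receptors, was at 360 CPM in young and 265 CPM in aged IgG2a mice and did not pass the test, and it was called lower without aged IgG2a replicate 1 (-0.46, edgeR adjusted p = 0.0139). Without aged IgG2a replicate 1, Unc93b1 was lower with aPD1ab by -1.12 (edgeR adjusted p = 0.0208), while Cd14 was not called.

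Of the 6 adaptors, 2 were higher with age, beside 9.05% of all genes. They were Myd88 (0.56, edgeR adjusted p = 0.0400), used by all members but Tlr3, and Ticam2 (1.17, edgeR adjusted p = 0.0301), the bridging adaptor of TLR4. Ticam1, which encodes TRIF, was at 26.2 CPM in young and 29.1 CPM in aged IgG2a mice and was not called. Myd88 was the 1 adaptor higher in aged aPD1ab than in young mice (0.38, edgeR adjusted p = 0.0183), a share near the 12.4% of all genes. Pik3ap1, the most abundant adaptor, was lower with aPD1ab by -1.59 without aged IgG2a replicate 1 (edgeR adjusted p = 0.0064).

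Of 18 kinases and ubiquitin ligases 3 were higher and 1 lower with age, with a median log2 fold change of 0.23, and of 10 transcription factors 3 were higher and 0 lower, beside 9.05% and 8.38% of all genes. Without aged IgG2a replicate 1, 10 of the 18 and 7 of the 10 were higher, beside 22.1% of all genes. Irf5, which acts below the endosomal receptors, was at 74.5, 147 and 83.8 CPM in young, aged IgG2a and aged aPD1ab mice and was higher with age by 1.07 (edgeR adjusted p = 0.0450). Among 11 inhibitors 1 was higher and 0 lower with age, a share near that of all genes, Cd300a by 1.52, while Socs3, Tnfaip3, Nfkbia and Tollip, the 4 most abundant, were not called. Between the aged groups 0 genes of any of these lists were called with all libraries. Without aged IgG2a replicate 1, aPD1ab mice were lower for 8 of the 18 kinases and ubiquitin ligases. Among the 4 most abundant these were Syk (-0.89), Ikbkb (-0.41) and Tab2 (-0.34). Lower too were 3 of the 10 transcription factors and 2 of the 11 inhibitors, with 1 inhibitor, Sigirr, higher by 1.74. In that fit 13.2% of all genes were lower and 17.1% higher, to which the share of the inhibitors was near.

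Target cytokines and chemokines were not called lower with aPD1ab in any comparison. Of 18 such genes 16 were tested, and 2 were higher in aged IgG2a than in young mice, Il10 (2.96, edgeR adjusted p = 0.00859) and Il1a (1.99, edgeR adjusted p = 0.0374), a share near the 9.05% of all genes. Without aged IgG2a replicate 1, 4 of 16 were higher, beside 22.1% of all genes. Both were also higher in aged aPD1ab than in young mice, by 2.33 and 1.54 (edgeR adjusted p = 0.00408 and 0.0126), as was the chemokine Cxcl1 by 1.32 (edgeR adjusted p = 0.00897). Between the aged groups 0 of 16 were called with or without aged IgG2a replicate 1 by edgeR. Il1b, the most abundant, was at 623, 964 and 762 CPM in young, aged IgG2a and aged aPD1ab mice, and was not called in any comparison. These genes, except Il1b, are named because they were called.

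**Figure D5:**
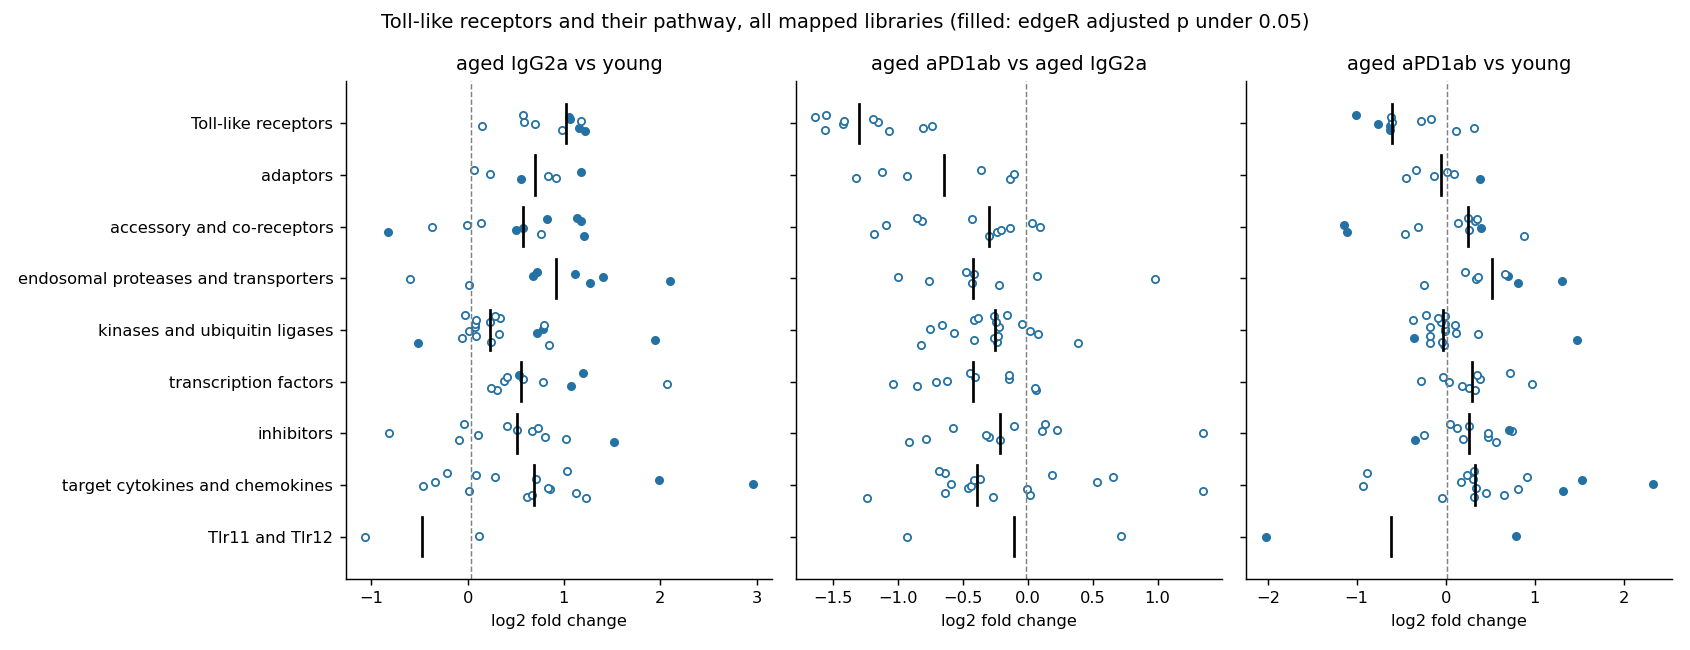
Fold change (log2) of each gene of the Toll-like receptor pathway in the 3 comparisons with all libraries; filled points had an edgeR adjusted p under 0.05, black bars are list medians and the dashed line is the median of all genes. The receptors have the lowest median in both comparisons of aPD1ab mice among the lists shown here of more than 2 genes. Against young mice their median is -0.606, and that of Tlr11 and Tlr12 is -0.619.

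Across the 13 libraries the members varied together. The Pearson correlation of log2 CPM between pairs of members had a median of 0.814, and of 0.754 after the group means were removed. The highest was 0.956, between Tlr1 and Tlr6, neighbours whose counts may share reads. The lowest was 0.204, between Tlr2 and Tlr3, and these 2 genes had the lowest median correlations with the other members, 0.608 and 0.624. With group means removed the medians were 0.552 for Tlr2 and 0.337 for Tlr3. These are descriptions over libraries that share 3 groups, and no test was made.

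The genes most like each member over the 13 libraries, among 16259 genes searched, are given by Pearson r of log2 CPM, as a description. Those of Tlr1 were Apbb1ip (r = 0.988), Fermt3 (0.986) and Mpeg1 (0.982), those of Tlr6 were Naip6 (0.991), Themis2 (0.984) and Sh3bp2 (0.977), and those of Tlr4 were Spred1 (0.980), Celf2 (0.979) and Pik3cg (0.977). Those of Tlr2 were Ier5 (0.977), 5430427O19Rik (0.976) and Pmaip1 (0.973). Those of Tlr3 were Mfsd14b (0.929), Sppl2a (0.920) and Scel (0.915), and with group means removed these fell to between 0.676 and 0.715. For Tlr5 they were Tgfbr2 (0.965), Gm15931 (0.963) and Camk1d (0.950). The X-linked Tlr7 was most like Sept8 (0.981), Asah1 (0.971) and Cmklr1 (0.965), Tlr8 like Atp2b1 (0.954), Srgap2 (0.954) and Myof (0.954), and Tlr13 like Gvin1 (0.977), Naip2 (0.968) and Atp2b1 (0.965). Tlr9 was most like Gm8995 (0.975), Gm15931 (0.963) and Rp2 (0.962). None of these genes was in the lists above.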

How the data were processed

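The authors deposited counts of reads per Ensembl gene for the podocyte fractions, as whole numbers without normalization. The submitters' processing notes name HISAT2, featureCounts and mm10/GRCm38; versions and strand setting are not given in the sources used here. Of 15 columns, 13 were tied to a group by the numbers printed in a figure of the study, since no GEO label names them, and 2 were not used. Replicate numbers follow column order.

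Symbols and positions came from GENCODE M21 and promoters from RefSeq (GRCm38.p6). Each pair of groups was fitted in R 4.3.3 with edgeR 4.0.16 (robust quasi-likelihood, TMM, filterByExpr) with Benjamini-Hochberg adjustment over all genes tested, checked on simulated counts. DESeq2 1.42.0, limma 3.58.1 (voom with sample quality weights), RLE size factors, 1 fit of all 3 groups, no filter on low counts, C1q genes as the only macrophage markers, transcript length and leaving out each library were alternatives; list counts without aged IgG2a replicate 1 were added after seeing the data. For principal components and correlations, CPM were taken to log2 after adding a prior count of 2. The members and lists were chosen with earlier results of these data known. Named genes were all members, up to 4 of highest mean CPM per list and the 3 most correlated with each member; others were chosen after their values were seen. One listed gene is not reported here and was left out of its list, which was recomputed without it.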

Additional observations from a re-analysis of the deposited data

Results flagged for a closer look

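Each member was examined in each group for a library far from the rest, 30 groups in all, by the gap to the nearest library over the range of the group, by Dixon's 95% limit. Chance flags about 1 in 20 groups. Of the 4 found, 3 were aged IgG2a replicate 1, which was lowest of its group for Tlr4 (17.6 CPM, gap 0.908 of the range), Tlr5 (1.52 CPM, 0.840) and Tlr6 (4.66 CPM, 0.847). The other was young replicate 2, highest of its group for Tlr8 at 23.8 CPM (0.722 of the range).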

How the results depend on the processing

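For aged IgG2a against young mice, 4 members were called higher in the reported fit and 9 by voom (limma, weights per sample). DESeq2 called 7, and 1 was called with no filter on low counts. Over all genes these fits called 1443 of 15953, 3898 of 15953, 2289 of 15938 and 828 of 26039 higher, in the same order. Leaving out each library in turn gave between 0 and 9, with 9 only without aged IgG2a replicate 1. Over all genes these fits called between 260 and 3584 higher, with 3584 only without that replicate. For aged aPD1ab against aged IgG2a mice, 0 were called lower in the reported fit, 10 by voom, 8 by DESeq2 and 8 in 1 edgeR fit of all 3 groups. Over all genes these fits called 0 of 15530, 2929 of 15530, 983 of 14908 and 1002 of 16330 lower, in the same order. Between 0 and 9 were called with a library left out, again 9 only without that replicate. There 2086 of 15770 genes were lower, and 0 genes with any other library left out. For aged aPD1ab against young mice, 4 were lower in the reported fit and 1 in the fit of all 3 groups. Over all genes these fits called 1594 of 15986 and 1411 of 16330 lower. Between 2 and 4 were lower with a library left out, 2 without aged aPD1ab replicate 4. Over all genes these fits called between 1024 and 1746 lower, with 1024 without that replicate. The cause was not tested. Among the alternative fold changes of single members 2 reversed, both of Tlr1 between aged aPD1ab and young mice, to -0.022 without young replicate 4 and -0.046 without aged aPD1ab replicate 1, the lowest of a range up to 0.28 with a library left out; 51 passed the threshold where the reported value did not, and 47 the other way.

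Ratios to macrophage markers were lower for 3 members with age and 5 between aged aPD1ab and young mice, and for 0 with any library of the comparison itself left out, where fewer libraries raise the smallest possible p. C1q genes alone gave 4 and 7. Reversed ratios were those of Tlr2 with age without aged IgG2a replicate 4 (0.080), of Tlr1 between the aged groups without aged IgG2a replicate 4 (0.052) or aged aPD1ab replicate 3 (0.037), of Tlr2 there without aged IgG2a replicate 4 (-0.069), of Tlr3 there without aged IgG2a replicate 3 (-0.025) or aged aPD1ab replicate 2 (-0.13), and of Tlr2 between aged aPD1ab and young mice with C1q genes alone (-0.28) or without young replicate 2 (-0.032), young replicate 3 (-0.065) or aged aPD1ab replicate 4 (-0.079). With a library left out, these ratio differences ranged from -0.31 to 0.080, from -0.13 to 0.052, from -0.069 to 0.33, from -0.13 to 0.44 and from -0.079 to 0.093, in the same order. None of these ratios had passed the test. With the longest transcript as length, 3 of 10 levels per kilobase in young mice moved by more than 1 SD. No paired analysis was possible because the labels give the groups no shared replicate numbers.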
